A study of Mus musculus with 24 samples.

Results

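The genes described here belong to the hormone systems that set the tone and remodelling of arteries, in mouse aorta: 9 of the 21959 genes in the count table, chosen by name. They are Agt, Ace and Agtr1a of the renin-angiotensin system, Edn1, Ednra and Ednrb of the endothelin system, and Npr1, Npr2 and Npr3, the natriuretic peptide receptors. All 9 were in the table and all 9 passed the filter on low counts, so each was tested among 14216 genes. None passed edgeR's quasi-likelihood test in any of 5 comparisons, and the values below show where they varied instead: Agtr1a, the angiotensin II receptor, and Agt, the precursor of its ligand, differed most between groups, and single libraries carried much of that difference.

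In the renin-angiotensin system, renin cuts angiotensinogen to angiotensin I, and angiotensin-converting enzyme trims that to angiotensin II, which acts on vascular smooth muscle through the type 1 receptor to raise tone and drive matrix remodelling. Endothelin-1 is released by endothelium and contracts smooth muscle through the A receptor, while the endothelial B receptor clears the peptide and triggers nitric oxide release. Natriuretic peptides oppose both: their guanylyl cyclase receptors make cyclic GMP, which relaxes smooth muscle. Angiotensin II infusion is itself a standard way to provoke aortic aneurysm in mice, which is why these genes are of interest in a model of aortic disease.

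Poly(A) RNA was sequenced from whole aorta, ascending part to abdominal bifurcation, of male mice in 4 groups. KI-BAPN mice (6 libraries) carried the ATAD3A-KI genotype and drank 0.5% (w/v) β-aminopropionitrile (BAPN) for 28 days from the age of 3 weeks. KI mice (5 libraries) had the same genotype and plain drinking water, WT-BAPN mice (7 libraries) were wild type on the same BAPN dose, and WT mice (6 libraries) were wild type on plain water. The starting age of 3 weeks and the 28 days were the same in all 4 groups. BAPN blocks lysyl oxidase, the enzyme that cross-links collagen and elastin, and is used to induce aortic aneurysm and dissection. The labels give neither the promoter nor the cell type behind the ATAD3A knock-in, nor whether a library is 1 animal, so p-values measure the spread between libraries.

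Libraries held 13127645 to 26490651 counts. Atad3a, the targeted gene, averaged 587 ± 262 CPM (read counts scaled to a common library total) in KI-BAPN libraries and 1079 ± 407 CPM in KI libraries, against 33.2 ± 7.25 CPM in WT-BAPN and 40.2 ± 11.4 CPM in WT libraries (SD, n = 6, 5, 7 and 6). All 10 smooth muscle and all 10 endothelial markers listed were measured in each group. Some libraries stood apart in markers of other tissue. WT replicate 5 had 20670 summed CPM of airway and lung genes and 6535 of skeletal muscle genes, KI replicate 2 had 1644 of sympathetic neuron genes and 1033 of hepatocyte genes, KI replicate 5 and KI-BAPN replicate 3 had 10270 and 9177 of adipocyte genes, and KI-BAPN replicates 3 and 6 had 1529 and 888 of macrophage genes. In bulk tissue, fewer cells of a type and less RNA per cell cannot be told apart. Changes with single libraries left out are given beside the results. Gene coordinates are those of the deposited table; only Npr2 of the 9 has the same start and end in the GENCODE M21 annotation of GRCm38, so their build is open and they are not to be set against the promoter coordinates below. In that annotation 7 of the 9 overlap a non-coding gene, and the strand setting of the counting is not given in the sources used here, so reads of such a pair cannot be told apart.

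Set on a common scale, as RPKM (CPM divided by gene length in kilobases), the 9 genes spanned a wide range. The receptor Npr1 was highest with 48.4 ± 22.7 RPKM over all 24 libraries (SD), followed by Ace with 36.5 ± 13.8 and Npr2 with 26.8 ± 7.28. Edn1, the ligand gene, averaged 6.91 ± 3.01 RPKM. Lower still were Ednrb (3.48 ± 3.36), Ednra (2.70 ± 1.73), Agtr1a (2.48 ± 4.53), Npr3 (2.20 ± 1.09) and Agt (0.914 ± 1.97 RPKM). The step from Npr2 to Edn1 was 2.01 ± 0.71 on the log2 RPKM scale and held in 24 of 24 libraries. The neighbours Npr1 and Ace, Ace and Npr2, Ednrb and Ednra, Ednra and Agtr1a, and Agtr1a and Npr3 differed by less than 1 SD of their log2 ratio over libraries. Their order is thus not settled from library to library. For Agtr1a and Npr3 the mean log2 ratio was -0.39, against the order of their means, and Agtr1a was the higher in 7 of 24 libraries. The 3 highest genes held the same places in every group, and Edn1 was the fourth in every group.

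**Figure D1:**
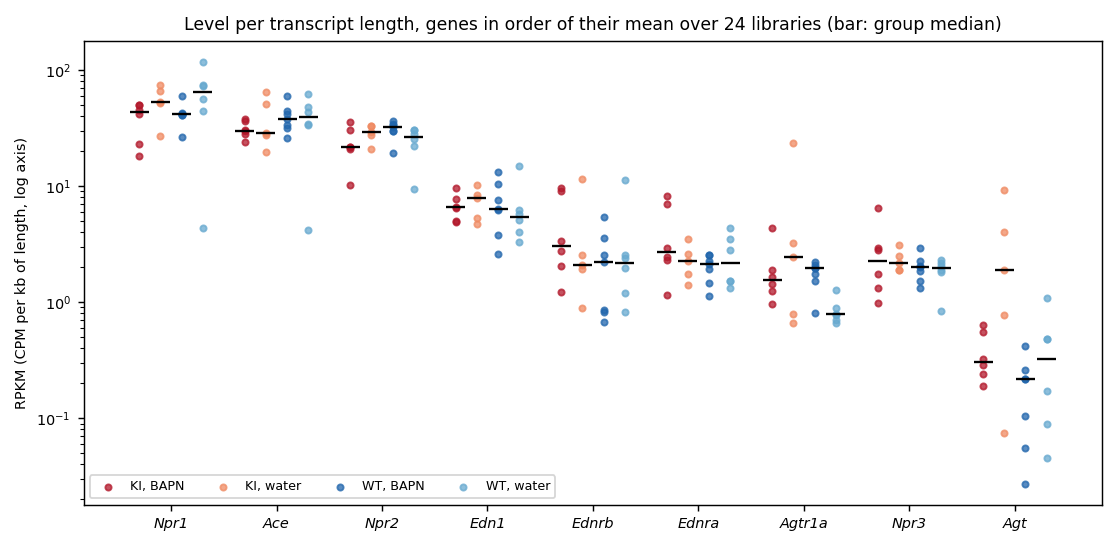
RPKM on a log axis for each gene, ordered by mean over 24 libraries, with 1 point per library and a bar at each group's median; groups run from KI on BAPN at the left of each cluster to WT on water at its right. The medians of Npr1, Ace and Npr2 stand above that of Edn1 in every group, and Agt has the lowest median in every group.

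No gene of the 9 was called at an adjusted p under 0.05 by edgeR. The share of all tested genes that was called was small for most comparisons as well: 6.14% for BAPN in WT, 0.0352% for BAPN in KI, 0.190% for KI against WT on plain water, 0.00703% for KI against WT on BAPN, and 0.00% for the interaction, which is the BAPN change in KI minus that in WT. At an unadjusted p under 0.05, no member counted for BAPN in WT, where 25.0% of all genes did. Agt and Agtr1a counted for BAPN in KI (10.1% of all genes) and for KI against WT on plain water (16.9%), Ednra for KI against WT on BAPN (13.9%), and Agtr1a for the interaction (14.8%). In no pairwise comparison were the groups of a member free of overlap in CPM, a separation met by 2.12% of genes for BAPN in WT, 0.647% for BAPN in KI, 2.38% for KI against WT on plain water and 0.218% for KI against WT on BAPN.

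Another pair of tools called a few. DESeq2 called Agt for BAPN in KI and both Agt and Agtr1a for KI against WT on plain water, in comparisons where it called 1.42% and 3.45% of all genes. It called no member for BAPN in WT (10.7% of genes), for KI against WT on BAPN (0.139%) or for the interaction (0.0646%). Limma voom with sample quality weights called Agtr1a for BAPN in WT, where it called 29.8% of all genes. It called no member for BAPN in KI (0.00%), KI against WT on plain water (1.91%), KI against WT on BAPN (0.0211%) or the interaction (0.0281%).

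**Figure D2:**
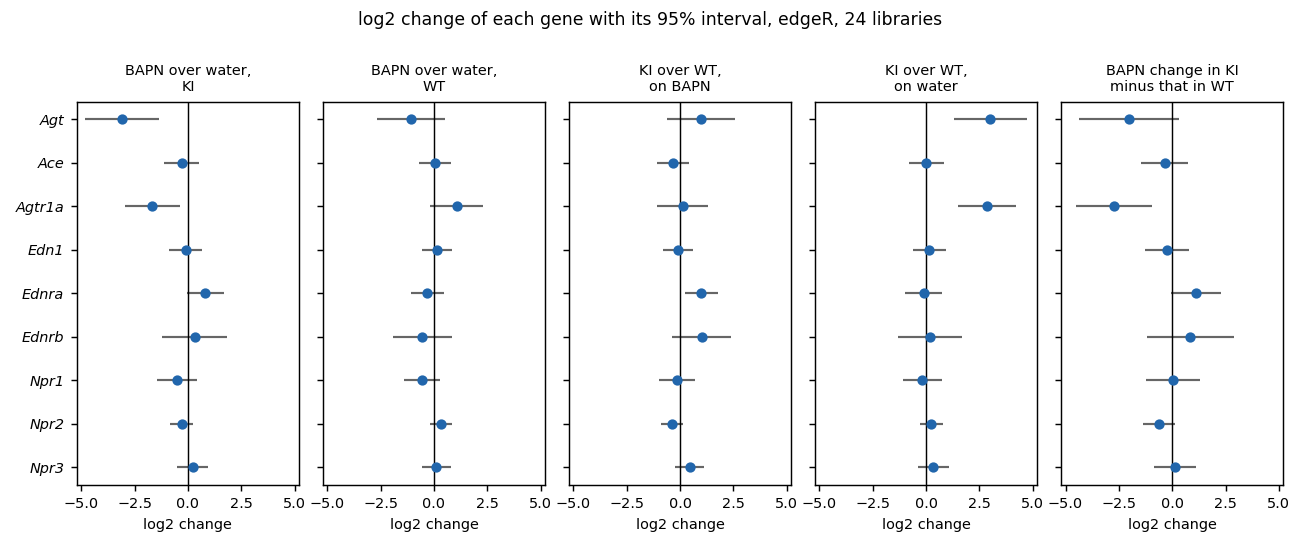
log2 change of each gene (edgeR, 24 libraries) with its 95% interval, 1 panel per comparison, each dot above 0 meaning higher on BAPN, in KI, or, in the last panel, a higher BAPN change in KI than in WT. Only intervals of Agt, Agtr1a and Ednra clear 0 in any panel, and none of these passed the adjusted threshold.

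Agt encodes angiotensinogen, the precursor of all angiotensins, made mainly by liver and also by fat. The deposited table places it at chr8:125283273-125296445, minus strand. It was near the floor of detection in most libraries, with 1 to 402 reads per library. KI replicates 2, 4 and 5 had 195, 78 and 402 reads. KI-BAPN libraries had a lowest, median and highest value of 0.356, 0.576 and 1.2 CPM. KI libraries had 1.45, 7.62, 0.141, 3.61 and 17.5 CPM in replicates 1 to 5. WT-BAPN libraries ran from 0.0517 over a median of 0.410 to 0.790 CPM, and WT libraries from 0.0856 over 0.613 to 2.03 CPM. Of the KI libraries, replicates 2, 4 and 5 lay above every WT library, while replicate 1 lay below WT replicate 2 (2.03 CPM) and replicate 3 lay near the bottom, so the groups overlapped. On the log2 scale Agt was 3.01 ± 0.83 (SE) higher in KI than in WT on plain water, a value that did not pass (edgeR adjusted p = 0.103). Its change with BAPN in KI was -3.10 ± 0.83 (adjusted p = 0.152), and that with BAPN in WT was -1.09 ± 0.77 (adjusted p = 0.395), or -0.47 ± 0.79 without WT replicate 2 (adjusted p = 0.747). KI-BAPN and WT-BAPN libraries differed by 1.0 ± 0.77 (adjusted p = 0.575), with all 6 KI-BAPN libraries above the WT-BAPN mean but only 2 above every WT-BAPN library. The lowest KI-BAPN library, at 0.356 CPM, lay below the WT-BAPN median of 0.410 CPM. By DESeq2 the difference on plain water was 3.04 ± 0.80 (adjusted p = 0.0153) and the BAPN change in KI was -3.12 ± 0.80 (adjusted p = 0.0155).

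KI replicate 5, the library highest in Agt, was also highest in adipocyte genes. The 2 did not go together in every library. KI-BAPN replicate 3 had 9177 summed CPM of adipocyte genes and 1.06 CPM of Agt, and KI replicate 4 had 1558 and 3.61 CPM. All 10 adipocyte markers listed were tested, none was at 0, and their summed level ran from 645 to 9177 CPM in KI-BAPN, 908 to 10270 in KI, 411 to 2728 in WT-BAPN and 902 to 2111 CPM in WT libraries. Without KI replicate 5 the plain water difference of Agt was 2.09 ± 0.80 (edgeR adjusted p = 0.173) and the BAPN change in KI was -2.18 ± 0.80 (adjusted p = 0.391). With adipocyte, skeletal muscle and cardiac muscle scores as covariates these were 2.35 ± 0.72 (adjusted p = 0.0829) and -3.06 ± 0.70 (adjusted p = 0.0429), so the call for BAPN in KI was gained. Smooth muscle was not among these covariates. Hepatocyte genes summed to 1.57 CPM in KI replicate 5 and to 1033 CPM in KI replicate 2, the library second highest in Agt. Without KI replicate 2 the plain water difference was 2.92 ± 0.88 (adjusted p = 0.277) and the BAPN change in KI was -3.01 ± 0.88 (adjusted p = 0.353). KI replicate 5 was also the highest in endothelial genes, with 1772 summed CPM against at most 1274 CPM in any other library. With the endothelial score as a covariate the plain water difference was 2.41 ± 0.61 (adjusted p = 0.0765) and the BAPN change in KI was -2.87 ± 0.61 (adjusted p = 0.106). With the Schwann cell score these were 1.78 ± 0.86 (adjusted p = 0.270) and -1.25 ± 0.99 (adjusted p = 0.460). The part of these tissues in the Agt values beyond these fits was not tested.

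Ace encodes the enzyme that makes angiotensin II and breaks down bradykinin, and sits at chr11:105858771-105880790, plus strand. It was abundant, and no difference between groups passed. KI-BAPN libraries had 126, 159 and 201 CPM as lowest, median and highest. KI libraries had 150, 104, 269, 339 and 144 CPM. The values were 136, 201 and 316 CPM in WT-BAPN and 22, 206 and 330 CPM in WT libraries. A single library, WT replicate 5, set the low end at 22 CPM, while the next lowest of all 24 had 104 CPM. The log2 change was -0.29 ± 0.40 for BAPN in KI, 0.06 ± 0.36 for BAPN in WT, -0.33 ± 0.37 for KI against WT on BAPN and 0.02 ± 0.40 on plain water, with edgeR adjusted p of 0.820, 0.941, 0.717 and 0.989. The 95% interval of the BAPN change in WT ran from -0.70 to 0.81. That of the BAPN change in KI ran from -1.11 to 0.53, and that of KI against WT on BAPN from -1.09 to 0.42. Of 6 KI-BAPN libraries, 0 lay above the KI mean and 0 above the WT-BAPN mean, yet the groups overlapped.

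Agt and Ace lie at opposite ends of the ligand-making branch by level, and their promoters are printed because both carry a TATA box near the start. RefSeq windows on GRCm38.p6 from 250 bases before to 50 after the start were available for 8 of the 9 genes, with 2 for Ace, where a start inside the gene gives the shorter testis form. The counts per gene do not separate these forms. On both strands 6 motifs were searched: the TATA box TATAAA, the CCAAT box, the GC box GGGCGG, the AP-1 motif TGANTCA, the E-box CACGTG, and the CArG box by name. The capitals mark matches to TATAAA and GGGCGG, read on either strand (TTTATA is TATAAA on the other one), and adjoining GGGCGG matches share bases.

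Agt, chr8:124569657-124569956, minus strand: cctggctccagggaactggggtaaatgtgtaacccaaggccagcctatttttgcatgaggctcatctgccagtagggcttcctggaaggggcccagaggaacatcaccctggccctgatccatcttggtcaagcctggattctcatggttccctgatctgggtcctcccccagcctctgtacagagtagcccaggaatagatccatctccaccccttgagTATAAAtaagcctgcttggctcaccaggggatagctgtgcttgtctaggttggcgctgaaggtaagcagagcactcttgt
Ace, upstream start, chr11:105967698-105967997, plus strand: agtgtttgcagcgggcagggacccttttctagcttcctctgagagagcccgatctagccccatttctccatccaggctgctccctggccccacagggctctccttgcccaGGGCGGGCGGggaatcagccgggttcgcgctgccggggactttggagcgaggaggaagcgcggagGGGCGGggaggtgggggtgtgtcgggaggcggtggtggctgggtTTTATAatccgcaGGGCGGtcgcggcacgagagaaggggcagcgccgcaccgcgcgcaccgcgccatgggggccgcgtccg

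TATAAA began 30 bases before the start in Agt and 31 bases before it in Ace, and it occurs in 13.6% of 32851 RefSeq windows of this length. GGGCGG was found 4 times in Ace, 2 times in Npr1 and in no other window, against 35.7% of all windows that hold it. CCAAT was found in Npr1, the second Ace window, Edn1, Ednrb and Npr3 (37.4% of windows), and TGANTCA (7.81%), CACGTG (7.15%) and the CArG box (1.63%) in none. These are matches of letters in a window and not shown sites.

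Agtr1a encodes the main type 1 angiotensin receptor of mouse arteries and lies at chr13:30520424-30566850, plus strand. KI-BAPN libraries had 2.68, 4.29 and 12.1 CPM as lowest, median and highest. KI libraries had 6.80, 65.0, 2.21, 1.85 and 8.99 CPM in replicates 1 to 5. WT-BAPN libraries had 2.25, 5.53 and 6.15 CPM, and WT libraries had 1.86, 2.19 and 3.55 CPM. Of 7 WT-BAPN libraries, 6 lay above the highest WT library, and only WT-BAPN replicate 7 lay among the WT values. KI libraries were split, with 3 above every WT library and replicate 4 just below all of them. KI replicate 2 was far above every other library of the series.

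The BAPN change of Agtr1a in WT was 1.06 ± 0.59 on the log2 scale and did not pass in the fit of all 24 libraries (edgeR adjusted p = 0.273), which shares 1 estimate of spread with KI replicate 2. Fitted over the WT-BAPN and WT libraries alone it was 1.05 ± 0.26 (adjusted p = 0.0391), in a fit that called 5.84% of genes. Limma voom, which weights libraries by their quality, gave 1.27 ± 0.44 (adjusted p = 0.0312). Without WT replicate 5 and KI replicate 2 the value was 1.21 ± 0.40 (edgeR adjusted p = 0.0581). Over these fits the change lay between 1.05 and 1.27 and its SE between 0.26 and 0.59. Smooth muscle genes, 10 of 10 tested, were summed to 16120 to 43870 CPM in WT-BAPN and 13020 to 58490 CPM in WT libraries, and their part in this change was not tested.

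Agtr1a was 2.84 ± 0.65 higher on the log2 scale in KI than in WT libraries on plain water, short of the threshold (edgeR adjusted p = 0.0764). DESeq2 gave 2.87 ± 0.62 (adjusted p = 0.00165). Without KI replicate 2 the edgeR value was 1.07 ± 0.43 (adjusted p = 0.326). The BAPN change in KI was -1.66 ± 0.63 (adjusted p = 0.358) and turned to 0.107 ± 0.429 (adjusted p = 0.949) without that library. The interaction was -2.72 ± 0.86 (adjusted p = 0.280) with it and -0.95 ± 0.57 (adjusted p = 0.494) without it. KI-BAPN and WT-BAPN libraries differed by 0.12 ± 0.58 (adjusted p = 0.945), with a 95% interval from -1.07 to 1.31. With the 4 libraries rich in other tissue left out (WT replicate 5 and KI replicates 1, 2 and 5), only 2 KI libraries remained and the plain water difference was -0.07 ± 0.45 (adjusted p = 0.993). The KI libraries left out are those above every WT library, so that value is fixed by the choice of libraries.

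Markers of more than 1 other tissue stood high in KI replicate 2. Its summed hepatocyte genes, of which 2 of 6 were tested, were at 1033 CPM, against at most 28.9 CPM in any other library, and its Schwann cell genes were at 254 CPM, the third highest of the series. The part of liver RNA in the Agtr1a values was not tested. Sympathetic neurons, the cells of ganglia that lie along the aorta, were the other such tissue. All 8 listed genes were tested and none was at 0 in any group. Their summed level ran from 29.4 to 42.4 CPM in KI-BAPN, 34.7 to 1644 in KI, 19.5 to 40.3 in WT-BAPN and 19.2 to 118 CPM in WT libraries. KI replicate 2 had 334 CPM of Dbh and 238 CPM of Th, enzymes of noradrenaline synthesis. The second highest KI library in both measures was replicate 5, with 273 summed CPM of neuron genes and 8.99 CPM of Agtr1a, and replicate 1 was the third in both. Adrenal cortex genes, of which 1 of 6 was tested, summed to 4.73 CPM in KI replicate 2, within the 4.03 to 7.90 CPM of all libraries, and Cyp11b2, the aldosterone synthase gene, had no read in any group. With the neuron score as a covariate, a fit chosen after the values were seen, the plain water difference was 0.38 ± 0.55 (edgeR adjusted p = 0.795) and the BAPN change in WT was 1.47 ± 0.41 (adjusted p = 0.0378). The share of all genes called for BAPN in WT with that covariate is not given. The part of neuronal RNA in Agtr1a beyond this fit was not tested.

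Rodents carry a second type 1 receptor gene, Agtr1b, whose sequence is close to Agtr1a, and how reads shared by both were counted is not given in the sources used here, so both values are uncertain to that extent. Agtr1b averaged 1.99 CPM in KI-BAPN and 3.38 in KI libraries, against 1.01 in WT-BAPN and 2.16 CPM in WT libraries. Its BAPN change in WT was -1.10 ± 0.55 (edgeR adjusted p = 0.212), opposite in sign to that of Agtr1a and not called.

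**Figure D3:**
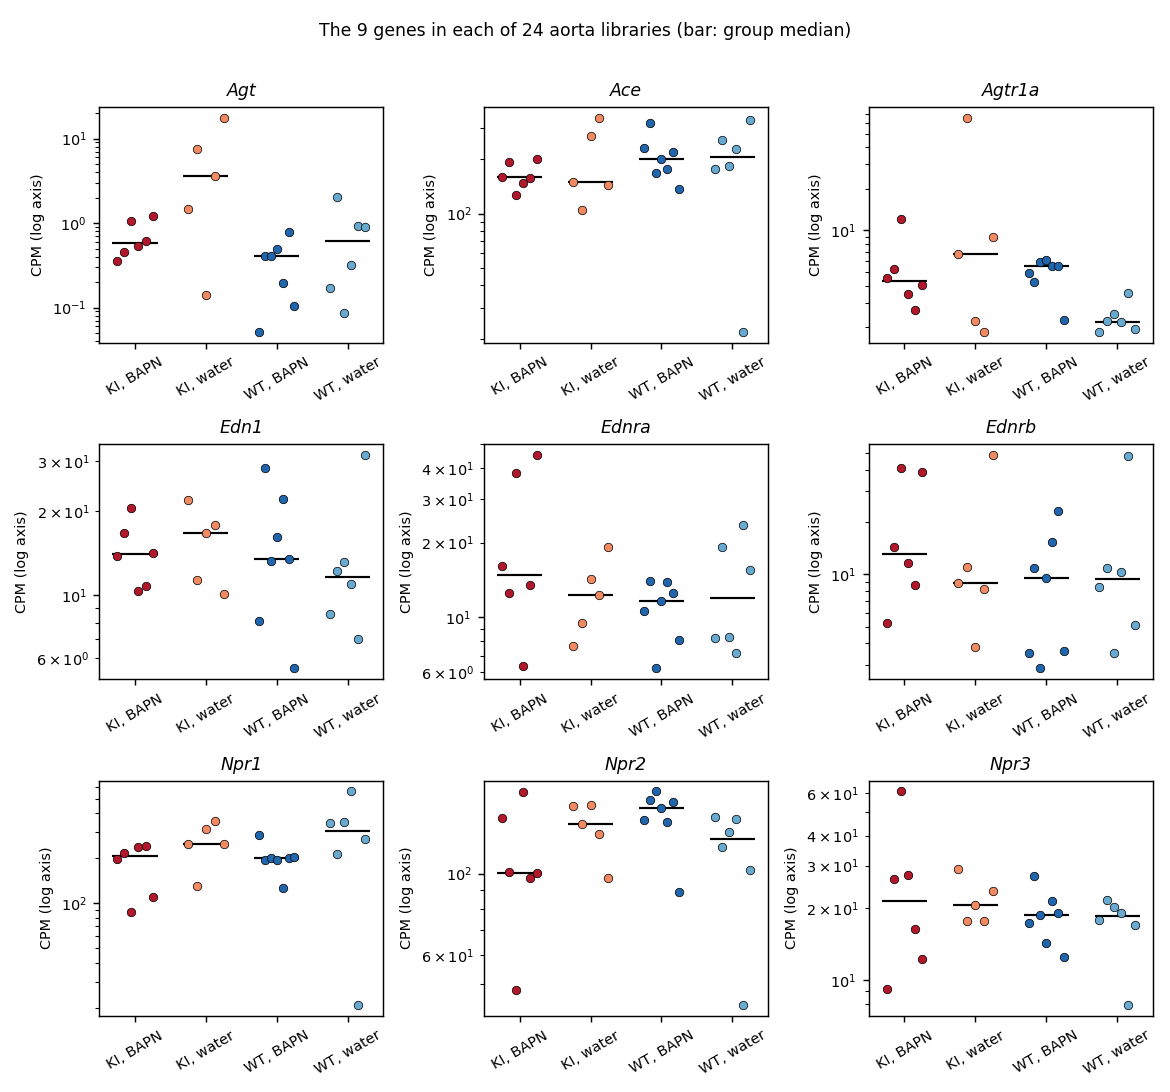
CPM of each gene on a log axis in all 24 libraries, with points in replicate order and a bar at each group's median; groups run from KI on BAPN at the left to WT on water at the right. Agtr1a shows 6 WT-BAPN libraries above all WT libraries and KI replicate 2 at 65.0 CPM, Agt is widely spread in KI libraries, and WT replicate 5 is the low point of Ace, Npr1, Npr2 and Npr3.

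Edn1 encodes endothelin-1, the main vasoconstrictor peptide of endothelium, at chr13:42454952-42461466, plus strand. KI-BAPN libraries had 10.4, 14 and 20.5 CPM as lowest, median and highest. KI libraries had 21.9, 11.4, 16.7, 17.8 and 10.1 CPM. WT-BAPN libraries had 5.50, 13.5 and 28.4 CPM and WT libraries 6.98, 11.6 and 31.7 CPM. All 4 groups overlapped over most of their range, and the highest WT library, replicate 6, stood at 31.7 CPM against 13.2 CPM for the next. The log2 changes lay between -0.11 ± 0.37 for BAPN in KI and 0.16 ± 0.37 for KI against WT on plain water, and no bound of the 4 pairwise 95% intervals was farther from 0 than 0.93. Its group means were 14.4 ± 3.80 CPM in KI-BAPN, 15.6 ± 4.84 in KI, 15.3 ± 7.88 in WT-BAPN and 13.9 ± 8.98 CPM in WT libraries (SD, n = 6, 5, 7 and 6).

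Ednra encodes the endothelin A receptor of smooth muscle, at chr8:78389660-78451093, minus strand. KI-BAPN libraries had 6.36, 14.8 and 45.3 CPM as lowest, median and highest. KI libraries had 7.66, 9.49, 14.3, 12.4 and 19.2 CPM. WT-BAPN libraries had 6.21, 11.7 and 14.1 CPM and WT libraries 7.18, 11.9 and 23.6 CPM. The high KI-BAPN values came from replicates 3 and 6, with 38.3 and 45.3 CPM, while the other 4 ran from 6.36 to 16.1 CPM and overlapped with every group. Ednra was 1.0 ± 0.38 higher on the log2 scale in KI-BAPN than in WT-BAPN libraries, which did not pass (edgeR adjusted p = 0.274). Without KI-BAPN replicate 6 that difference was 0.66 ± 0.36 (adjusted p = 0.475) and without replicate 3 it was 0.77 ± 0.38 (adjusted p = 0.717). The BAPN change in KI was 0.81 ± 0.42 (adjusted p = 0.523), that in WT was -0.31 ± 0.38 (adjusted p = 0.636), or -0.086 without WT replicate 5, and the interaction was 1.12 ± 0.56 (adjusted p = 0.343).

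Ednrb encodes the endothelin B receptor, at chr14:104052061-104081838, minus strand, found on endothelium and also on Schwann and neural crest cells. KI-BAPN libraries had 5.22, 13 and 41.1 CPM as lowest, median and highest. KI libraries had 8.92, 10.9, 3.81, 8.19 and 48.9 CPM. WT-BAPN libraries had 2.87, 9.55 and 23.3 CPM and WT libraries 3.51, 9.36 and 48.3 CPM. In Ednrb 4 libraries stood above the rest, KI-BAPN replicates 3 and 6 with 41.1 and 39.0 CPM, KI replicate 5 with 48.9 and WT replicate 5 with 48.3 CPM, so each of 3 groups had its own high libraries and no WT-BAPN library reached them. The difference between KI-BAPN and WT-BAPN libraries was 1.02 ± 0.67 on the log2 scale (edgeR adjusted p = 0.504). The BAPN change was 0.31 ± 0.73 in KI (adjusted p = 0.902) and -0.55 ± 0.67 in WT (adjusted p = 0.640), and KI against WT on plain water was 0.16 ± 0.73 (adjusted p = 0.934). That last value was -0.85 without KI replicate 5 and 1.07 without WT replicate 5, so its sign followed which of those libraries was kept.

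Both receptors were high in KI-BAPN replicates 3 and 6, the KI-BAPN libraries richest in macrophage genes. All 10 macrophage markers were tested, none was at 0, and their summed level ran from 173 to 1529 CPM in KI-BAPN, 51.3 to 183 in KI, 89.6 to 652 in WT-BAPN and 41.2 to 758 CPM in WT libraries. Those replicates also held 5187 and 5390 CPM of adventitial fibroblast genes, against 2085 to 3105 CPM in the other KI-BAPN libraries, and KI-BAPN replicate 3 had the lowest smooth muscle sum of the series, 11080 CPM. KI replicate 5 and WT replicate 5, high in Ednrb but less so in Ednra, had 420 and 685 summed CPM of Schwann cell genes, of which 8 of 9 were tested, while the other KI and WT libraries had 34.7 to 254 CPM. KI-BAPN replicates 3 and 6, also high in Ednrb, had 60.6 and 42.6 CPM of Schwann cell genes. KI replicate 2, with 254 CPM of them, had 10.9 CPM of Ednrb. Pmp2, a peripheral myelin gene, was at 0 in all KI, WT-BAPN and WT libraries. The part of macrophages, fibroblasts and smooth muscle in the receptor levels was not tested. With the scores of fat with skeletal and cardiac muscle, endothelium, Schwann cells, mesothelium or neurons as covariates, Ednra in KI-BAPN against WT-BAPN ran from 0.73 ± 0.37 to 0.99 ± 0.39 on the log2 scale.

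Per length, Ednra stood at 0.426 to 2.41 times the level of Ednrb in KI-BAPN, 0.305 to 2.91 in KI, 0.418 to 2.36 in WT-BAPN and 0.381 to 2.36 in WT libraries, with medians of 0.816 in KI-BAPN, 0.676 in KI, 1.01 in WT-BAPN and 1.07 in WT libraries. The balance of the receptors thus varied more within each group than between the medians. Their promoter windows are shown because they are the member receptors that were high in shared libraries. The capitals mark CCAAT on either strand (ATTGG is CCAAT on the other one).

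Ednra, chr8:77724403-77724702, minus strand: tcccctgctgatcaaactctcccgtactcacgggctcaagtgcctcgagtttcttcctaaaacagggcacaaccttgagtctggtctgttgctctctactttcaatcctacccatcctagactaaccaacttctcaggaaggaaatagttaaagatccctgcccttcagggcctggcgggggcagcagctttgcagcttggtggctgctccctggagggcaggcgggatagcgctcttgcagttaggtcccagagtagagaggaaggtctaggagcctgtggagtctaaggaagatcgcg
Ednrb, chr14:103843652-103843951, minus strand: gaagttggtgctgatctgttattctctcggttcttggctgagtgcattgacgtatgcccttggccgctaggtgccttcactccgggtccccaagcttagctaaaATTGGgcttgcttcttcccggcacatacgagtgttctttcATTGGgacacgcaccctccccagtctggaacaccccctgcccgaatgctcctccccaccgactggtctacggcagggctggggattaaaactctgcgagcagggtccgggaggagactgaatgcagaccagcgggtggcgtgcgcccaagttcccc

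Ednrb held CCAAT at 146 and 106 bases before the start, and the Ednra window held none of the 6 motifs.

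Npr1 encodes the receptor for atrial and B-type natriuretic peptide, a guanylyl cyclase of smooth muscle, at chr3:90357898-90373173, minus strand. KI-BAPN libraries had 87.5, 207 and 240 CPM as lowest, median and highest. KI libraries had 250, 130, 315, 355 and 251 CPM. WT-BAPN libraries had 126, 200 and 284 CPM and WT libraries 20.9, 307 and 561 CPM. WT libraries were the most spread, with replicate 4 highest and replicate 5 lowest of all 24. All 7 WT-BAPN libraries and all 6 KI-BAPN libraries lay below the mean of their plain water group, yet the ranges overlapped. The BAPN change was -0.52 ± 0.45 in KI (edgeR adjusted p = 0.711) and -0.55 ± 0.41 in WT (adjusted p = 0.422) on the log2 scale, and the interaction was 0.03 ± 0.61 (adjusted p = 0.986). Without WT replicate 5 the change in WT was -0.79 (adjusted p = 0.0730), and without WT replicate 4 it was -0.26 (adjusted p = 0.744). Smooth muscle genes moved with it: their summed level ran from 11080 to 41510 CPM in KI-BAPN, 24970 to 56690 in KI, 16120 to 43870 in WT-BAPN and 13020 to 58490 CPM in WT libraries, all 10 of them tested, and of these 2 fell in WT-BAPN against WT. The part of smooth muscle content in Npr1 was not tested.

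Npr2 encodes the receptor for C-type natriuretic peptide, also a guanylyl cyclase, at chr4:43631935-43651244, plus strand. KI-BAPN libraries had 48.0, 101 and 167 CPM as lowest, median and highest. KI libraries had 153, 136, 154, 129 and 97.4 CPM. WT-BAPN libraries had 89.4, 151 and 168 CPM and WT libraries 43.8, 124 and 143 CPM. Of 7 WT-BAPN libraries, 4 exceeded every WT library, while 5 of 6 KI-BAPN libraries lay below the WT-BAPN mean; all groups overlapped. The BAPN change was 0.34 ± 0.25 in WT (edgeR adjusted p = 0.404) and -0.29 ± 0.27 in KI (adjusted p = 0.726), and the interaction of -0.63 ± 0.36 did not pass (adjusted p = 0.396). KI-BAPN against WT-BAPN was -0.39 ± 0.25 (adjusted p = 0.483). Without WT replicate 5, the lowest library, the change in WT was 0.18 ± 0.21 (adjusted p = 0.620) and the interaction was -0.47 ± 0.31 (adjusted p = 0.458). Without KI-BAPN replicate 3, the next lowest, the change in KI was -0.14 ± 0.24 and KI-BAPN against WT-BAPN was -0.24 ± 0.23 (adjusted p = 0.878).

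Npr3 encodes the clearance receptor, which binds all natriuretic peptides and removes them without making cyclic GMP, at chr15:11839982-11907373, minus strand. KI-BAPN libraries had 9.17, 21.4 and 61.2 CPM as lowest, median and highest. KI libraries had 29.0, 17.7, 20.6, 17.6 and 23.6 CPM. WT-BAPN libraries had 12.5, 18.8 and 27.3 CPM and WT libraries 7.89, 18.5 and 21.6 CPM. The medians of the 4 groups lay within 18.5 to 21.4 CPM, and KI-BAPN replicate 3 and WT replicate 5 formed the extremes of the series. All 5 KI libraries lay above the WT mean, with a log2 difference of 0.33 ± 0.35 that did not pass (edgeR adjusted p = 0.672) and was 0.18 ± 0.34 without WT replicate 5. KI-BAPN against WT-BAPN was 0.45 ± 0.32 (adjusted p = 0.543), and -0.03 without KI-BAPN replicate 3.

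The per-length ratio of the clearance receptor Npr3 to Npr1 had a median of 0.0576 in KI-BAPN, 0.0480 in KI, 0.0477 in WT-BAPN and 0.0308 in WT libraries. Its range was 0.0237 to 0.356 in KI-BAPN, 0.0252 to 0.0694 in KI, 0.0311 to 0.0864 in WT-BAPN and 0.0173 to 0.193 in WT libraries, so groups overlapped. Npr1 stood at a median of 1.59 times Npr2 per length in KI-BAPN, 2.0 times in KI, 1.25 times in WT-BAPN and 2.46 times in WT libraries.

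The genes of the natriuretic ligands were at or near the floor of detection in aorta. Nppa, Nppb and Nppc, the genes of atrial, B-type and C-type natriuretic peptide, and Ostn, a further Npr3 ligand, did not pass the filter on low counts, with highest values of 2.17, 0.543, 1.56 and 0.172 CPM in any library. Edn2, the second endothelin gene, reached 3.89 CPM in WT replicate 5, the library rich in lung genes, and was not tested. Kel (at most 0.105 CPM), Pde2a (0.218) and Nox1 (0.283) also stayed under the filter. Ren1, the renin gene, was tested at a median of 0.835 CPM with a range of 0.0393 to 10.6 CPM over 24 libraries.

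Around the 9 genes, 6 lists of pathway genes were counted, chosen from knowledge of the systems. Of 14 tested genes of the renin-angiotensin list, 0 were called in any of the 5 comparisons, and likewise 0 of 3 of the endothelin list, 0 of 2 of the natriuretic peptide list, 0 of 14 cyclic GMP effectors and 0 of 27 effectors of the Gq and G12 proteins that the receptors couple to. Of 13 angiotensin II target genes, 1 rose with BAPN in WT and 0 in the other comparisons. That gene was Spp1, osteopontin, with 238 CPM on average in WT-BAPN and 3.62 CPM in WT libraries and a log2 change of 6.03 ± 1.58 (edgeR adjusted p = 0.0299). Its values had a lowest, median and highest of 1.23, 3.11 and 1075 CPM in WT-BAPN and 1.27, 3.01 and 8.58 CPM in WT libraries, so the medians lay close and high WT-BAPN libraries carried the mean.

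Some mast cell chymases make angiotensin II without Ace, and neither of the mast cell protease genes listed, Cma1 and Mcpt4, passed in any comparison. Cma1 averaged 8.13 CPM in KI-BAPN and 1.28 CPM in WT-BAPN libraries (log2 change 2.66 ± 0.94, edgeR adjusted p = 0.264), and Mcpt4 averaged 9.74 CPM in KI-BAPN and 1.78 CPM in WT-BAPN libraries (2.45 ± 0.87, adjusted p = 0.266). Their KI-BAPN libraries ran from 0.669 to 31.4 CPM for Cma1, overlapping with WT-BAPN libraries at 0.576 to 2.37 CPM. For BAPN in WT their changes had the other sign, -1.77 ± 0.92 for Cma1 (adjusted p = 0.235) and -1.67 ± 0.86 for Mcpt4 (adjusted p = 0.228). Prcp, a peptidase that degrades angiotensin II, averaged 40.2 CPM in KI-BAPN and 20.5 CPM in KI libraries (0.97 ± 0.26, adjusted p = 0.155), and Anpep, an aminopeptidase, 30.3 CPM in KI-BAPN and 16.2 CPM in KI libraries (0.91 ± 0.34, adjusted p = 0.358). Enpep, which trims angiotensin II to angiotensin III, was 0.65 ± 0.30 higher in WT-BAPN than in WT (adjusted p = 0.183), and Agtrap, which binds the type 1 receptor and promotes its uptake, 0.30 ± 0.14 higher in KI than in WT (adjusted p = 0.268). The median log2 change of the list was 0.29 for BAPN in KI, beside -0.03 over all genes tested.

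In the endothelin list, Edn3, a further ligand, averaged 0.460 CPM in WT-BAPN and 0.965 CPM in WT libraries (-1.07 ± 0.52, edgeR adjusted p = 0.205), and Ece2, a converting enzyme, 0.730 CPM in WT-BAPN and 0.312 CPM in WT libraries (1.23 ± 0.66, adjusted p = 0.247). Ece1, the main endothelin-converting enzyme of endothelium, had a change of -0.07 ± 0.27 for BAPN in KI (adjusted p = 0.948). Furin, a protease that cuts propeptides, averaged 47.0 CPM in KI-BAPN and 70.4 CPM in KI libraries (-0.58 ± 0.22, adjusted p = 0.359). Corin, which activates atrial natriuretic peptide, had 7.43 CPM in KI-BAPN and 2.14 CPM in KI libraries (1.80 ± 1.38, adjusted p = 0.671).

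Among cyclic GMP effectors, Pde5a, the phosphodiesterase that breaks down cyclic GMP in smooth muscle, came nearest, at 131 CPM in WT-BAPN and 184 CPM in WT libraries (-0.49 ± 0.16, edgeR adjusted p = 0.0616). Gucy1a1, a subunit of the nitric oxide receptor, averaged 258 CPM in KI and 159 CPM in WT libraries (0.70 ± 0.30, adjusted p = 0.235). Prkg1, the cyclic GMP-dependent kinase, had a log2 change of -0.22 ± 0.18 for BAPN in WT (adjusted p = 0.469). Of the Gq and G12 effectors, Gnaq averaged 103 CPM in KI-BAPN and 73.5 CPM in WT-BAPN libraries (0.49 ± 0.14, adjusted p = 0.243) and Itpr2, an IP3 receptor, 41.6 CPM in KI-BAPN and 19.1 CPM in WT-BAPN libraries (1.12 ± 0.40, adjusted p = 0.263). Rgs5, a regulator of G protein signalling found in mural cells, averaged 1791 CPM in KI and 814 CPM in WT libraries (1.14 ± 0.48, adjusted p = 0.229).

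The angiotensin II targets had the lowest median of the 6 lists for KI against WT on plain water, -0.96 on the log2 scale beside -0.01 over all genes tested, and -0.62 beside -0.02 for KI against WT on BAPN. Rcan1, a calcineurin regulator, averaged 47.8 CPM in KI and 109 CPM in WT libraries (-1.18 ± 0.38, edgeR adjusted p = 0.136) and 54.7 CPM in KI-BAPN against 95.8 CPM in WT-BAPN libraries (-0.81 ± 0.35, adjusted p = 0.307). Ccl2 and Cybb, genes of monocyte attraction and of phagocyte oxidase, had changes of 2.66 ± 1.0 and 2.32 ± 1.01 for BAPN in KI (adjusted p = 0.357 and 0.446). None of these passed, and the comparisons on plain water and on BAPN share libraries with the BAPN comparisons.

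Across the 24 libraries, and after each group's mean log2 CPM was removed, 36 pairs of the 9 genes and 117 pairs of a gene and a marker score were correlated. Each p is from a permutation test of 100000 draws within groups, adjusted over all 153 relations. Of these, 24 passed for Pearson's r and 21 passed for Spearman's coefficient as well. Libraries share depth and tissue make-up over all genes, so the values are descriptions.

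Ednra and Ednrb, the endothelin receptors, varied together (r = 0.621, adjusted permutation p = 0.0188, and Spearman = 0.574, adjusted permutation p = 0.0418), and r was 0.537 without the 2 libraries farthest from the median of Ednrb. Agt and Ednrb did so too (r = 0.649, adjusted permutation p = 0.017, and Spearman = 0.697, adjusted permutation p = 0.00809), with r = 0.577 without the 2 farthest libraries. Npr1, a natriuretic peptide receptor, ran against both endothelin receptors. It had r = -0.567 with Ednra (adjusted permutation p = 0.018, Spearman = -0.603, adjusted permutation p = 0.0247) and r = -0.604 with Ednrb (adjusted permutation p = 0.0324, Spearman = -0.643, adjusted permutation p = 0.0129), and r stayed at -0.536 and -0.583 without the 2 libraries farthest in Npr1. Npr2 ran against Ednra as well (r = -0.614, adjusted permutation p = 0.047, Spearman = -0.605, adjusted permutation p = 0.0418), with r = -0.456 without the 2 libraries farthest in Npr2. Npr2 and Ednrb had r = -0.534, which did not pass (adjusted permutation p = 0.0589). Ace and Npr1 had r = 0.813, yet this did not pass (adjusted permutation p = 0.058, Spearman = 0.533, adjusted permutation p = 0.09), and r was 0.469 without WT replicates 4 and 5, so the high r rested on them.

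Npr1 followed the smooth muscle score (r = 0.774 and Spearman = 0.843, both with an adjusted permutation p = 0.00153, and r = 0.78 without the 2 farthest libraries). Npr1 and Npr2 ran against the macrophage score (r = -0.726 and -0.635), and both passed on both coefficients. Without KI-BAPN replicate 3 and WT replicate 5, r was -0.678 for Npr1 and -0.379 for Npr2, so the relation of Npr2 leaned on those libraries. Ednrb followed the adipocyte score (r = 0.799, adjusted permutation p = 0.00153, Spearman = 0.771, adjusted permutation p = 0.00459, and 0.725 without 2) and the endothelial score (r = 0.779, adjusted permutation p = 0.00306, Spearman = 0.79, adjusted permutation p = 0.00459, and 0.75 without 2). These scores were not particular to Ednrb's pattern. It also passed on both coefficients with the smooth muscle (r = -0.717), macrophage (0.635), Schwann cell (0.617) and mesothelium (0.606) scores. Agt had r = 0.73 with the endothelial score (adjusted permutation p = 0.00337, Spearman = 0.711, adjusted permutation p = 0.00714, and 0.693 without 2) and r = 0.706 with the adipocyte score (adjusted permutation p = 0.0068, Spearman = 0.623, adjusted permutation p = 0.0204, and 0.641 without 2), and Ednra had r = 0.746 with the macrophage score (adjusted permutation p = 0.00437, Spearman = 0.778, adjusted permutation p = 0.00459, and 0.661 without 2). Ednra passed on both coefficients with the mesothelium (r = 0.642) and endothelial (0.472) scores as well. Agtr1a ran against the smooth muscle score (r = -0.655, adjusted permutation p = 0.00437, Spearman = -0.663, adjusted permutation p = 0.0194, and -0.63 without 2) and against Npr1 (r = -0.445, adjusted permutation p = 0.00796, Spearman = -0.625, adjusted permutation p = 0.0198, and -0.645 without 2). The libraries left out were those farthest in the smooth muscle score or in Npr1. KI replicate 2, the extreme library of Agtr1a, was kept in both. Agtr1a and the sympathetic neuron score had r = 0.727 (adjusted permutation p = 0.054, Spearman = 0.516, adjusted permutation p = 0.106), with r = 0.441 without KI replicates 2 and 3, so this relation rested on those libraries.

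**Figure D4:**
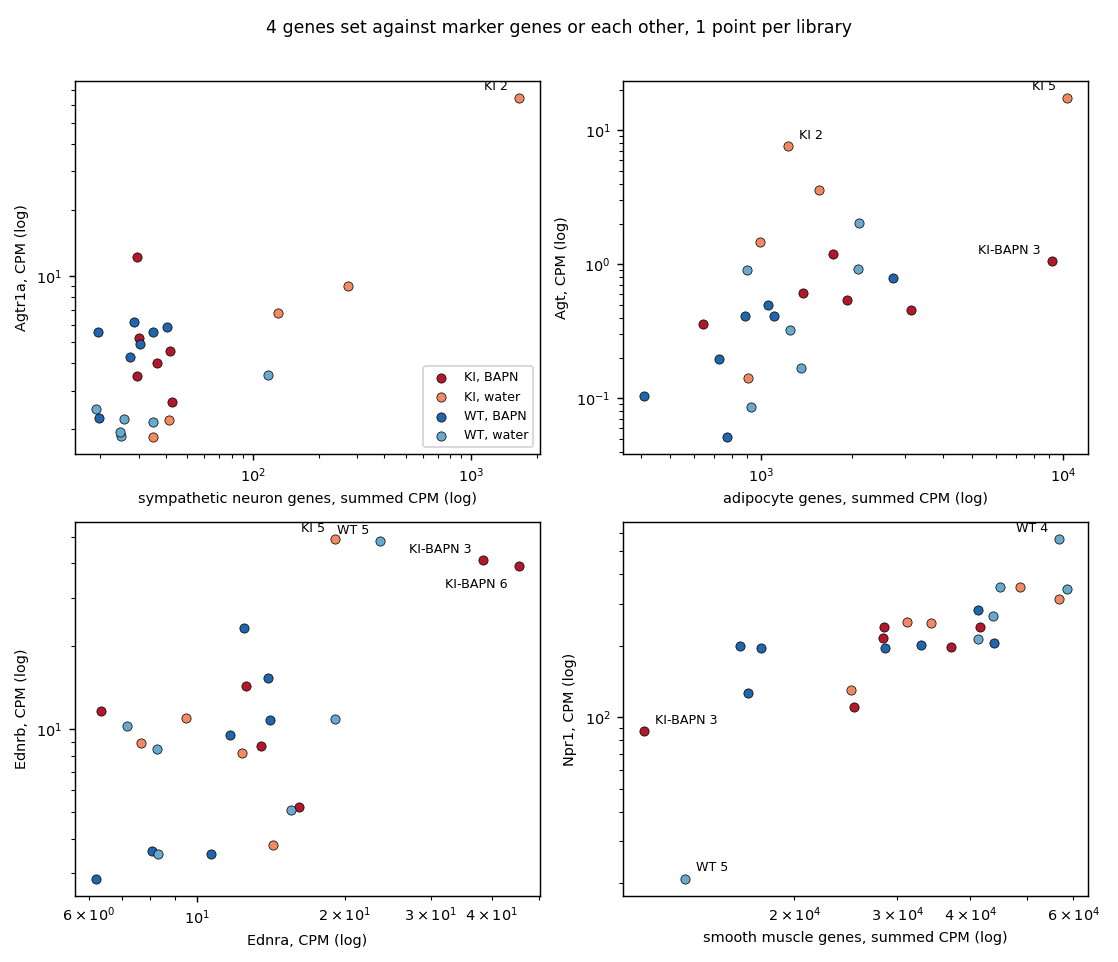
Each point is a library, on log axes: Agtr1a against the summed CPM of 8 sympathetic neuron genes, Agt against 10 adipocyte genes, Ednrb against Ednra, and Npr1 against 10 smooth muscle genes. KI replicate 2 stands alone at 65.0 CPM of Agtr1a and 1644 CPM of neuron genes, 4 libraries have Ednrb values from 39.0 to 48.9 CPM, and WT replicate 5 is lowest in Npr1.

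The genes whose library pattern was most like each member were taken over all 14216 tested genes by Pearson's r of the same values, as a description with no test. For Npr1 they were Mark1 (r = 0.964), Vasn (0.958) and Aebp1 (0.951), and for Npr2 Dtx3 (0.965), Leng8 (0.953) and Ssh3 (0.952). For Ace they were Ccn3 (0.920), Gabra3 (0.905) and Tmtc1 (0.903). For Ednrb they were Nrp2 and Lrg1 (both 0.926) and Spns2 (0.917), and for Ednra St3gal4 (0.872), Serpina3n and Itm2a (both 0.866). Agtr1a was closest to Pcbd1 (0.890), Shox2 (0.889) and Limk1 (0.887), each highest in KI replicate 2. Agt was closest to Ackr4 (0.845), Cadps2 (0.835) and Orm3 (0.824). Edn1 and Npr3 had no near match, with Zfp68 (0.762), Tm7sf3 (0.713) and Gulp1 (0.705) for Edn1, and Rcbtb2 (0.741), Comp (0.733) and Ralgapa2 (0.706) for Npr3.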

How the data were processed

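Read counts per gene, not normalized, were deposited by the authors for 24 libraries of poly(A) RNA; gene lengths came from the same table. HISAT2, Trim Galore, DESeq2 and FastQC are named, with mm10 and GRCm38 as builds, per the submitters' processing notes. Which program counted the reads, and on which strand, is not given in the sources used here. These counts were fitted with edgeR 4.0.16 (R 4.3.3) as 4 group means in a single model of the 24 libraries, using TMM factors, the tool's filter on low counts and its robust quasi-likelihood test, with Benjamini-Hochberg adjustment over 14216 genes and a threshold of 0.05. Each sentence's adjusted p is from edgeR unless DESeq2 1.42.0 or limma voom 3.58.1 is named. CPM used TMM factors, and RPKM divided CPM by length. Precision is limited by totals of 13127645 to 26490651 counts and by low counts for Agt. No 2 libraries of a group agreed within sampling noise. The edgeR fit was tested on simulated data. All 9 members were named. Of each pathway list the text names every called gene, or up to 2 with the smallest p per comparison, of which some are left to counts, and for each member the 3 genes with the most similar library pattern. The members and lists were chosen with earlier results of these data known, so they give no independent support. Alternatives were other scalings, tools, filters, sample sets, covariates and each library left out. The fat and muscle scores are those of adipocytes, skeletal muscle and cardiac muscle, and smooth muscle was in no covariate fit. Correlations used log2 CPM with a prior count of 2. Promoter windows are RefSeq's on GRCm38.p6. Figures were drawn with matplotlib.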

Additional observations from a re-analysis of the deposited data

Results flagged for a closer look

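Of 36 sets of values (9 genes in 4 groups), 9 held a library set apart from its nearest neighbour by Dixon's 95% criterion. The criterion sets that gap against the range of the group and assumes normal values, which CPM need not follow. The sets share libraries and the share over all tested genes is not given, so the count is not read as a trait of these genes. Agtr1a stood out in 3 groups: KI-BAPN replicate 3 (12.1 CPM, the next library 5.24 CPM), KI replicate 2 (65.0 CPM, the next 8.99 CPM) and WT replicate 5 (3.55 CPM, the next 2.48 CPM). Ednrb stood out in 2 groups, through KI replicate 5 (48.9 CPM) and WT replicate 5 (48.3 CPM), with 10.9 CPM for the next library in each group. Npr3 had 61.2 CPM in KI-BAPN replicate 3 against 27.3 CPM, and 7.89 CPM in WT replicate 5 against 17.0 CPM. Edn1 reached 31.7 CPM in WT replicate 6 against 13.2 CPM, and Npr2 only 89.4 CPM in WT-BAPN replicate 7 against 138 CPM. KI-BAPN replicate 3 and WT replicate 5 each appear more than once, and both stood apart in markers of other tissue: 9177 CPM of adipocyte and 1529 CPM of macrophage genes in KI-BAPN replicate 3, and 20670 CPM of lung genes in WT replicate 5. The part of these tissues in the single values was not tested.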

How the results depend on the processing

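The 45 log2 changes of the 9 genes were recomputed 1223 times: 1109 kept their sign and their side of the threshold, 13 gained a call, and 101 changed sign. None of the 45 was called in the fit of all 24 libraries and the cause of the changes of sign was not tested. The order of the genes by level per length was the same for all 9 with RLE in place of TMM factors. Depth limits Agt most, with as few as 1 read per library.

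Members called, 0 in each comparison, became 1 for BAPN in KI with DESeq2, with fat and muscle scores and without KI replicate 3 (Agt, lowest and highest count with 1 library left out 0 and 1). They became 1 for BAPN in WT with limma voom, only the groups compared, the neuron score, or without WT replicate 5 and KI replicates 1, 2 and 5 (Agtr1a). The main fit called 6.14% of all genes for BAPN in WT. The share with the neuron score is not given, so that call is not read as a result about Agtr1a. For KI against WT on water they became 2 with DESeq2 (Agt, Agtr1a) and 1 at a threshold of 0.1, with the mesothelium score, or without KI replicate 3, KI replicate 4 or WT replicate 5 (Agtr1a, 0 to 1 with 1 library left out). Genes called for BAPN in KI, 5 at first, were 198 with DESeq2, 100 with fat and muscle scores, 393 with the Schwann cell score and 3 without WT replicate 5 and KI replicates 1, 2 and 5. They were 0 at a threshold of 0.01, with limma voom, the mesothelium or neuron score, no filter on low counts, only the groups compared, the replicate block, or without WT replicate 5 and KI replicate 2, and 0 to 143 with 1 library left out. For BAPN in WT the count of 873 was 6 at 0.01, 1831 at 0.1, 1493 with DESeq2, 4234 with limma voom, 140 with the Schwann cell score, 1524 and 1352 without the 4 and the 2 libraries, and 327 to 1609 with 1 left out. For KI against WT on water the count of 27 was 2 at 0.01, 196 at 0.1, 480 with DESeq2, 271 with limma voom, 109 with fat and muscle, 81 with mesothelium, 171 with Schwann cell and 12 with neuron scores, 7 with no filter, 8 with only the groups compared, 1 and 11 without the 4 and the 2 libraries, and 1 to 293 with 1 left out. DESeq2 called 19 and 9 and limma voom 3 and 4 genes for KI against WT on BAPN and the interaction, where edgeR called 1 and 0.

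Of 22 same-numbered pairs of libraries, 11 had a correlation of their deviations over 0.1, from -0.521 to 0.571. For BAPN in WT 5 of 6 pairs did, at 0.196 to 0.571, with replicate 6 at -0.111. In no comparison did every pair do so, and the numbers were not taken to pair the samples. The replicate block called 0 members in every comparison. With the Schwann cell score, the log2 changes of opposite sign were for BAPN in WT Ace -0.203, Agt 0.0871, Ednra 0.118, Ednrb 0.933, for KI against WT on BAPN Agtr1a -0.128, Npr1 0.126, for KI against WT on water Ednrb -0.347, Npr1 0.187, for the interaction Npr1 -0.0605. Without WT replicate 5 and KI replicate 2 (chosen after the data were seen), the log2 changes of opposite sign were for BAPN in KI Agtr1a 0.106, for BAPN in WT Ace -0.179, Edn1 -0.00495, Ednrb 0.363, Npr3 -0.0343, for KI against WT on water Ace -0.0555, Ednra 0.19, for the interaction Ednrb -0.167. With the endothelial score, the log2 changes of opposite sign were for KI against WT on water Ednrb -0.511, for the interaction Npr1 -0.00538. With fat and muscle scores, the log2 changes of opposite sign were for BAPN in KI Npr3 -0.461, for BAPN in WT Ace -0.449, Edn1 -0.157, Ednra 0.00607, Ednrb 0.531, Npr3 -0.0338, for KI against WT on BAPN Agtr1a -0.411, Npr1 0.0969, Npr3 -0.106, for KI against WT on water Ednra 0.181, for the interaction Ednrb -0.488, Npr3 -0.427. Without WT replicate 5 and KI replicates 1, 2 and 5, the log2 changes of opposite sign were for BAPN in KI Agtr1a 1.39, for BAPN in WT Ace -0.181, Edn1 -0.00789, Ednrb 0.36, Npr3 -0.0366, for KI against WT on water Agtr1a -0.0686, Ednra 0.184, Ednrb -0.354, Npr3 -0.00434, for the interaction Agtr1a 0.187, Npr1 -0.0905. By limma voom, the log2 changes of opposite sign were for BAPN in KI Agtr1a 0.0495, Npr3 -0.301, for BAPN in WT Ace -0.00296, Ednrb 0.304, for KI against WT on BAPN Agtr1a -0.273, Npr3 -0.161, for KI against WT on water Ednra 0.0767, for the interaction Npr3 -0.306. With the mesothelium score, the log2 changes of opposite sign were for BAPN in KI Ednrb -0.28, for KI against WT on water Ednra 0.0967, for the interaction Npr1 -0.0717. Under the replicate block, the log2 changes of opposite sign were for KI against WT on BAPN Agtr1a -0.131, for KI against WT on water Ednra 0.0359, for the interaction Npr1 -0.00238, Npr3 -0.125. With the neuron score (chosen after the data were seen), the log2 changes of opposite sign were for BAPN in KI Agtr1a 1.07, for BAPN in WT Ace -0.0314, Ednrb 0.178, for KI against WT on BAPN Agtr1a -0.018, for KI against WT on water Ednrb -0.661, Npr1 0.143, for the interaction Npr1 -0.208, Npr3 -0.0524. With 1 library left out in turn, 18 of the 45 changed sign for at least 1 library, and these are their lowest and highest values. For BAPN in KI they were Agtr1a -2.08 to 0.107, Edn1 -0.24 to 0.0414, Ednrb -0.0304 to 1.33, Npr3 -0.245 to 0.403. For BAPN in WT they were Ace -0.178 to 0.276, Edn1 -0.0907 to 0.575, Ednrb -0.919 to 0.364, Npr3 -0.0333 to 0.191. For KI against WT on BAPN they were Agtr1a -0.299 to 0.255, Edn1 -0.234 to 0.137, Npr3 -0.0291 to 0.619. For KI against WT on water they were Ace -0.257 to 0.231, Ednra -0.323 to 0.104, Ednrb -0.854 to 1.07, Npr1 -0.419 to 0.117. For the interaction they were Ednrb -0.055 to 1.87, Npr1 -0.263 to 0.273, Npr3 -0.36 to 0.289.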
